A study of Mus musculus with 6 samples.

Results

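The regions described here are the SALL4 sites of mouse embryonic stem cells that lie in or within 10 kb of a zinc-finger gene named Zfp plus a number. A consensus region was called where intervals of both wild-type SALL4 lists overlapped by at least 1 bp and no knockout interval was present. Of 37997 consensus regions, 36443 lay on chromosomes 1 to 19, and 467 of these had their midpoint in or within 10 kb of 1 of 359 protein-coding Zfp genes (Zfp42 was left out). Binding was mapped by CUT&RUN, in which an antibody in permeabilised cells directs a nuclease to release the DNA around its target. The cells were grown in 2i medium with LIF. Both lines are embryonic stem cell lines, 1 per genotype: Sall4 F/F, in which the gene is floxed but intact (titled wild type), and Sall4 -/- (titled knockout). Each had 2 libraries made with a SALL4 antibody (clone EE-30), and the IgG libraries of both lines were not used here. No label says whether the replicates came from separate cultures, so the spread between them may be technical.

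Most Zfp genes encode proteins with arrays of C2H2 zinc fingers that read DNA. Many also carry a KRAB domain, through which they recruit the corepressor TRIM28 and the histone methyltransferase SETDB1 to silence retrotransposons and imprinted loci in early embryos. The KRAB members have multiplied by tandem duplication and stand in clusters of similar genes, while other Zfp genes, often long regulators of development, stand alone. SALL4 is itself a C2H2 zinc-finger protein that binds short AT-rich sequence and associates with the NuRD corepressor.

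The sequences that carry regions at transcription starts are shown first, since they are where SALL4 sites meet Zfp promoters. Of the 359 genes, 300 had promoter windows in the RefSeq table of GRCm38.p6, with 362 windows in all, and 15 of these genes (16 windows) were overlapped by a consensus region. These 15 genes were 5% of the 300, beside 3.78% of the 16157 other coding genes with a window. The 250 bases before the annotated start are given 5′ to 3′ for 6 of the 15: the strongest promoter regions at single genes (Zfp640, Zfp317), the strongest at clustered genes for which the window holds the whole summit stretch (Zfp811, Zfp27), the promoter with an AT-rich match at its summit (Zfp428), and the imprinting regulator Zfp57. Capitals mark the 41 bases centred on the mean of the summits of both wild-type replicates.
Zfp640, chr13:66680804-66681053, minus strand: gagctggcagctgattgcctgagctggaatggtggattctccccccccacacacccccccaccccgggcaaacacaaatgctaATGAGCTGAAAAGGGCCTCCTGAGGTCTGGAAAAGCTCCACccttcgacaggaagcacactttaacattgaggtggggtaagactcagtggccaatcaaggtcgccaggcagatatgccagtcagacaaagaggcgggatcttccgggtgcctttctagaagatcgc
Zfp317, chr9:19621841-19622090, plus strand: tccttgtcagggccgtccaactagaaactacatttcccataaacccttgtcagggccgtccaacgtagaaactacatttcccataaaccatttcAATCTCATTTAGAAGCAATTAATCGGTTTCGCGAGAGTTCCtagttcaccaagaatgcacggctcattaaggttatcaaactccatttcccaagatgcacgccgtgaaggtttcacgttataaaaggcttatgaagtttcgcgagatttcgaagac
Zfp811, chr17:32809932-32810181, minus strand: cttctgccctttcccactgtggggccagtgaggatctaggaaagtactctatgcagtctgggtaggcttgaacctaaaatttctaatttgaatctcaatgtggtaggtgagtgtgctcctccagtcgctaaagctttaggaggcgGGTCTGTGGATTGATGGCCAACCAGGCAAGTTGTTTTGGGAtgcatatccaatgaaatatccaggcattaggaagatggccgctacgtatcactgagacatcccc
Zfp27, chr7:29906105-29906354, minus strand: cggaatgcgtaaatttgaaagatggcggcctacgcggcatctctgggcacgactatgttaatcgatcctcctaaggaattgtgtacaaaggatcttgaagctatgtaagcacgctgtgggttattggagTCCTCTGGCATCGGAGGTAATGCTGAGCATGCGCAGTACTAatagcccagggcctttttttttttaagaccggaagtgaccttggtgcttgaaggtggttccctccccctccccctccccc
Zfp428, chr7:24506837-24507086, plus strand: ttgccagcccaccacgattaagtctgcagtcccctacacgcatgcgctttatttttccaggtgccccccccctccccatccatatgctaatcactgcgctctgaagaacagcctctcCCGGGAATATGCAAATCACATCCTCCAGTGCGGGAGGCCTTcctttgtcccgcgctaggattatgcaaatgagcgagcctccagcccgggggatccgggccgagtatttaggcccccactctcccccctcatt
Zfp57, chr17:37002275-37002524, plus strand: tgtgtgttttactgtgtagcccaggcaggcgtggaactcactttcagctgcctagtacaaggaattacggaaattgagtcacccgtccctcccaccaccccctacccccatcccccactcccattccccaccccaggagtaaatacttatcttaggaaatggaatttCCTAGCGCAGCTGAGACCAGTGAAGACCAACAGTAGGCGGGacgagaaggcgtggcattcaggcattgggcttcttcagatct

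At Zfp640 the fold enrichments over the local background were 13.1 in wild-type replicate 1 and 14.3 in replicate 2, with summits 22 bp apart and on average 147 bp before the start. Zfp317 had 11.0 and 12.2, with summits 2 bp apart and 136 bp before the start. Zfp811, in a cluster on chromosome 17, had 10.7 and 12.01, with the mean summit 85 bp before the start. These 3 promoters were high in both replicates. Zfp27, in the largest cluster on chromosome 7, had 9.46 and 6.004. The promoter region of Zfp57, whose protein keeps methylation at imprinted loci together with TRIM28, was weaker, at 4.82 and 6.80. Zfp428 had 4.73 and 7.34. The last 3 differ between the replicates by more than the first 3 do, and over the 15 genes the regions fell to 4.06 and 4.02 at Zfp871.

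The 5-base motif ATATT, searched on both strands, a short AT-rich word of the kind SALL4 is known to bind, was found in 3 of the 16 windows with a region, or 18.8%. It was found in 18.2% of the 346 Zfp windows without a region and in 21.1% of all 20085 coding windows of the same 300 bases. Among the 653 windows of other coding genes that had a region the share was 25.6%. Zfp428 was printed because of its match in capitals. Of the 16 windows it was the only 1 with a match in that stretch, which not all windows hold. Its sequence also held the octamer ATGCAAAT (either strand), the word read by POU factors such as OCT4, 2 times, once in capitals. This word was searched after the sequence had been seen. It was present in 1.67% of all coding windows, in 2.21% of the 362 Zfp windows, and in 5.67% of the 653 windows of other coding genes that had a region. The median share of A plus T was 46.2% in Zfp windows with a region and 45.5% in those without. A match is a description of letters only, and its absence says nothing about SALL4.

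The lists were first compared between the genotypes at these genes. The wild-type lists held 698 and 593 intervals in or within 10 kb of a Zfp gene, a mean of 645.5 ± 74.2 (SD, n = 2), and the knockout lists held 0 and 0. All knockout intervals lay off chromosomes 1 to 19, so leaving out regions with a knockout interval removed none of the 467. The difference of 9.33 on the scale log2(number + 1) stood against a spread of 0.166 between the wild-type replicates on that scale (SD, n = 2). Permuting the 4 libraries exactly, on both sides, gave p = 0.33, and 2 libraries against 2 can give none smaller. Both wild-type lists exceeded both knockout lists at 180 of 359 Zfp genes (50.1%), beside 44.3% of the 20665 coding genes of these chromosomes. Of the Zfp intervals of replicate 1, 68.8% (95% Wilson interval 65.2 to 72.1) were found in replicate 2, and of those of replicate 2, 79.4% (76.0 to 82.5) in replicate 1. Over all intervals on these chromosomes the shares were 70.3% and 79.3%, so replicate overlap at Zfp genes was close to that of the lists as a whole. These and the following intervals cover counting error only.

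A consensus region was present at 169 of the 359 Zfp genes, which is 47.1% (95% Wilson interval 41.97 to 52.2), beside 42.8% of all coding genes. Of the other 190 genes, 55 had an interval in at least 1 wild-type list and 135 had none. In the separate wild-type lists 208 Zfp genes (57.9%) and 196 Zfp genes (54.6%) had an interval, beside 50.8% and 47.7% of all coding genes. Between 1 and 2 regions were found at 107 genes, and 3 or more at 62 genes, or 17.3%, beside 15.4% of all coding genes. The regions numbered 0.269 per 10 kb of Zfp genes and their flanks and 0.192 per 10 kb for all coding genes. The ratio of Zfp genes to other coding genes was 1.42 in replicate 1 and 1.38 in replicate 2. The genes themselves held most of the difference, with a consensus ratio of 1.56 inside genes and 1.05 in the 10 kb flanks. Without their 5 fullest genes, single Zfp genes had 0.201 regions per 10 kb in place of 0.282, beside 0.191 for other coding genes from which none were left out. No test was made of this difference, because neighbouring genes share their surroundings and are not replicates.

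The regions were spread unevenly, and the 10 fullest genes held 145 regions, or 31.0% of the 467. All of the 14 genes with 7 or more regions were at least 40 kb long. Zfp704, a single gene of 183 kb on chromosome 3, had the most. It had 32 intervals in wild-type replicate 1 and 30 in replicate 2, against 0 and 0 in the knockout, and 25 consensus regions. With a −log10 q of at least 10 it had 5, as did Zfp462 and Zfp532, and with a fold enrichment of at least 10 it had 3 against 4 at each of those genes, so the order of genes turned under strict settings. Zfp292 had 22 and 23 wild-type intervals and 20 consensus regions in a gene of 79.9 kb, which with its flanks is 2.00 per 10 kb. Zfp148, which encodes the GC-box binding factor ZBP-89, had 29 and 25 wild-type intervals and 19 consensus regions. The knockout value of 0 holds for every gene of chromosomes 1 to 19, so it says nothing particular to these 3.

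Zfp462, whose product takes part in heterochromatin formation in stem cells, had 21 and 19 wild-type intervals and 16 consensus regions, all inside the gene. Zfp532 had 13 consensus regions. Zfp609 had 21 and 15 wild-type intervals and 12 consensus regions. Between replicate 1 and the consensus its count differed by over 1.5 times, as did those of Zfp148, Zfp521 and Zfp993. Zfp521, a regulator of neural and blood progenitors, had 17 and 12 wild-type intervals and 11 consensus regions over 286 kb. Zfp951 also had 11, in a gene of 57.9 kb. Zfp536, a neural gene of 456 kb, had 9, and so did Zfp993, the only 1 of these 10 that is clustered. Zfp536 and Zfp993, the longest of them, were the least dense, at 0.189 and 0.180 regions per 10 kb. By density among genes with 3 or more regions, Zfp57 led with 2.03 per 10 kb, followed by Zfp292, by Zfp961 (1.53), Zfp951 (1.41) and Zfp383 (1.40). Knockout lists held 0 intervals at every 1 of these genes.

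**Figure D1:**
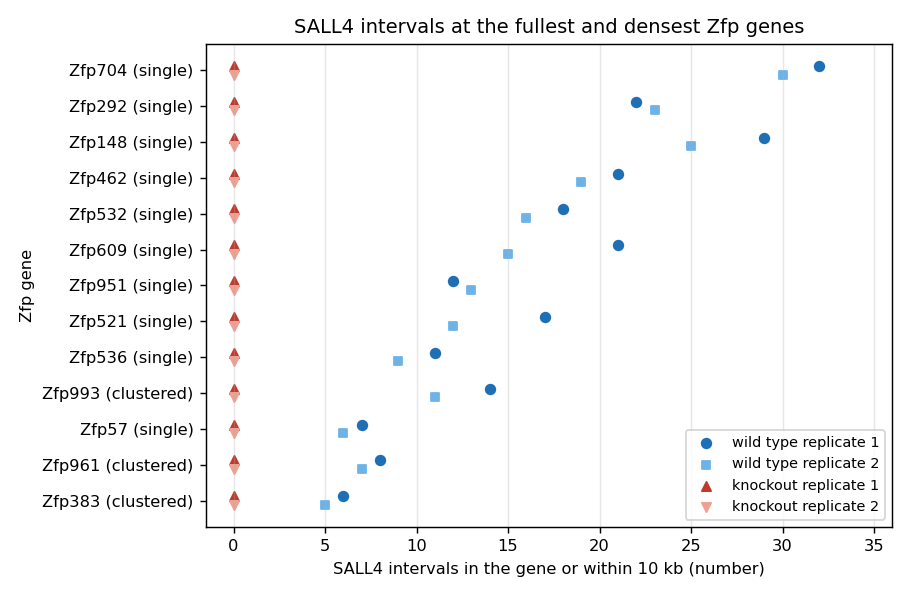
Number of SALL4 intervals (x axis) in or within 10 kb of the 10 Zfp genes with most consensus regions and, below them, 3 further genes of the 5 densest, with 1 point per library. Wild-type points range from 5 at Zfp383 to 32 at Zfp704, and all knockout points are at 0.

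Other Zfp genes with known roles were counted from a list of names. Zfp217, a transcriptional corepressor gene amplified in cancers, had 10 and 10 wild-type intervals and 8 consensus regions, all of modest strength, with highest fold enrichments of 9.58 and 6.54. Zfp568, a KRAB gene whose product represses a placental Igf2 transcript, had 9 and 7 intervals and 7 consensus regions, of which 2 lay inside the gene. Zfp57 had 7 and 6 intervals and 6 consensus regions. Of these, 2 lay inside Zfp57, 3 in the neighbouring gene H2-M5 and 1 in Mog. Most of the density given above for Zfp57 therefore came from its neighbours.

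Zfp106 and Zfp143, the latter a factor of promoters and chromatin loops, had 5 and 3 wild-type intervals and 3 consensus regions each. Zfp207, Zfp36 and Zfp423 had 1 consensus region each, from 2 and 5 intervals at Zfp207, 1 and 2 at Zfp36 and 1 and 1 at Zfp423, so the first 4 of these 5 genes differed by over 1.5 times between the lists. Zfp36 encodes the mRNA decay factor tristetraprolin, whose fingers are of another type and bind RNA. Zfp281, a regulator of the exit from pluripotency, had 0 consensus regions, with 1 interval in replicate 1 and 0 in replicate 2. Zfp91 had 4 and 0 intervals and Zfp703 had 1 and 0, so the replicates differed there. Zfp809, which starts the silencing of endogenous retroviruses, had 1 interval in each list that did not give a consensus region. Of the 14 genes on this list, 10 had a consensus region, beside 47.1% of the Zfp genes and 42.8% of all coding genes. The list was not matched for gene length, and Zfp462, Zfp521 and Zfp423 on it are among the long genes.

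The strongest single regions came from both classes of gene. The highest of the 467 lay at chr16:33379209-33380194, with its midpoint 1074 bp before the start of Zfp148. Its fold enrichments were 35.1 and 40.1, from 50 and 58 fragments at the summit. The region at chr18:13712577-13713085, inside Zfp521, had 33.7 and 31.3. The region at chr17:21375078-21376524, 7906 bp upstream of Zfp677, had 31.0 and 34.7. The region at chr6:83890204-83891040, inside Zfp638, had 30.5 and 29.4, and the region at chr17:32756980-32758014, 7999 bp past the end of Zfp871, had 30.3 and 32.6. The SDs between replicates, from 0.760 to 3.53, reach the gaps between neighbours in this order, so most of the order was not resolved.

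As a group the regions were about as strong as SALL4 regions elsewhere, and slightly weaker by the median in both lists. Their median fold enrichments were 6.79 and 6.12 in the wild-type replicates, beside 7.11 and 6.54 over all consensus regions of these chromosomes. The median width was 310 bp, beside 326 bp. The summits rested on a median of 11 and 10 fragments, with a lowest of 4 in both lists, so most single regions rest on few fragments. Of the 467 regions, 45 (9.64%) were among the strongest 10% of all. Across the regions the fold enrichments of the replicates had a Spearman's rho of 0.754 (n = 467), beside 0.769 for all. These regions share libraries and neighbours and are not independent.

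**Figure D2:**
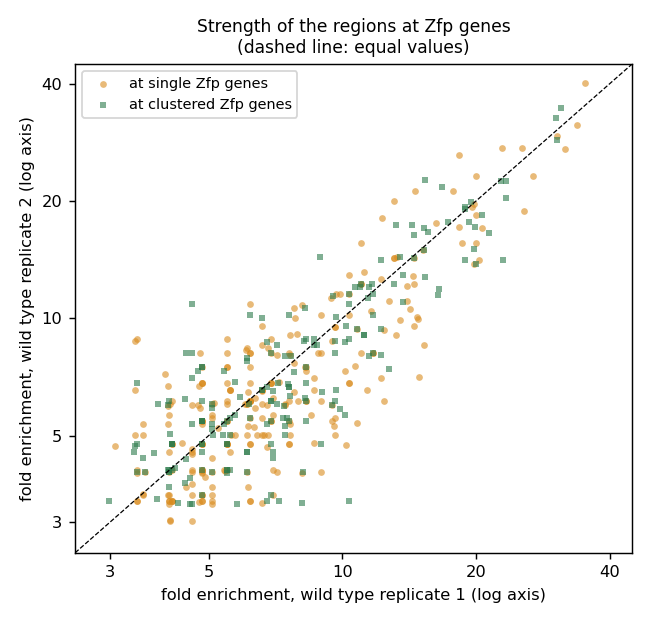
Fold enrichment of each of the 467 regions in wild-type replicate 1 (x axis) and replicate 2 (y axis), both on log axes, by class of the nearest Zfp gene. Points of both classes are mixed over the whole range, from about 3 to 40.1, and scatter most at low values.

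Clustered and single Zfp genes were then compared. A gene was called clustered where the nearest other Zfp gene lay at most 100 kb away. This gave 208 clustered genes in 50 clusters (29 of 3 or more genes and 21 pairs) and 151 single genes. Only genes named Zfp plus a number were linked, so a single gene can still lie near zinc-finger genes of other names. Some single genes, such as Zfp936 and Zfp715 on chromosome 7, lie just over 100 kb from another Zfp gene. The classes rest on distance alone and not on KRAB domains. A consensus region was present at 102 clustered genes, or 49.0% (42.3 to 55.8), and at 67 single genes, or 44.4% (36.7 to 52.3). The intervals overlap widely, and the difference of 4.67 points was 1.70 and 3.93 points in the lists of replicates 1 and 2. The density went the other way, with 194 regions or 0.252 per 10 kb at clustered genes and 273 regions or 0.282 per 10 kb at single genes. The ratio of clustered to single was 0.894 for the consensus and 0.932 and 0.917 in the separate lists (0.925 ± 0.0105, SD, n = 2).

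This ratio changed when the fullest genes were left out and with the strength required of the regions. The 5 fullest single genes, at 1.01 to 2.00 regions per 10 kb, were each denser than their class. Leaving them out could therefore only raise the ratio. They held 93 regions, or 34.1% of those at single genes, and without them the ratio was 1.25. Without the 5 fullest genes of each class it was 1.15. It was 1.26 when intervals needed a −log10 q of at least 10, and also when they needed a fold enrichment of at least 10. The median fold enrichments were 7.17 and 6.54 at clustered genes and 6.59 and 6.12 at single genes, in replicates 1 and 2. The direction of the difference in density between the classes thus changed with these settings.

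The classes also differed in gene length. Single genes of 40 kb or more numbered 36, with a median length of 102 kb, while 12 clustered genes were as long. At these lengths single genes had 0.365 regions per 10 kb, clustered genes 0.223 and other coding genes 0.194. The 5 fullest single genes, all of at least 40 kb, held 93 of the 196 regions at these 36 single genes. The shares of genes with a region were 80.6% (65.0 to 90.2) for single genes, 66.7% (39.1 to 86.2) for clustered genes and 70.3% for other coding genes, so the intervals of both Zfp classes overlap there. Among genes of 10 to 20 kb clustered genes stood above single genes. There 49 of 92 clustered genes had a region, which is 53.3% (43.1 to 63.1), against 14 of 50 single genes, or 28% (17.5 to 41.7), and 35.5% (34.0 to 37.1) of other coding genes. The densities were 0.304, 0.137 and 0.194 per 10 kb. From 20 to 40 kb the shares were 43.2%, 42.5% and 46.7%, and under 10 kb they were 43.3%, 28% and 22.6%, with wide intervals for both Zfp classes. These 4 length classes were chosen with these data in view and were not tested against each other. Over all genes of 10 to 40 kb the ratio of densities of clustered to single genes was 1.51.

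**Figure D3:**
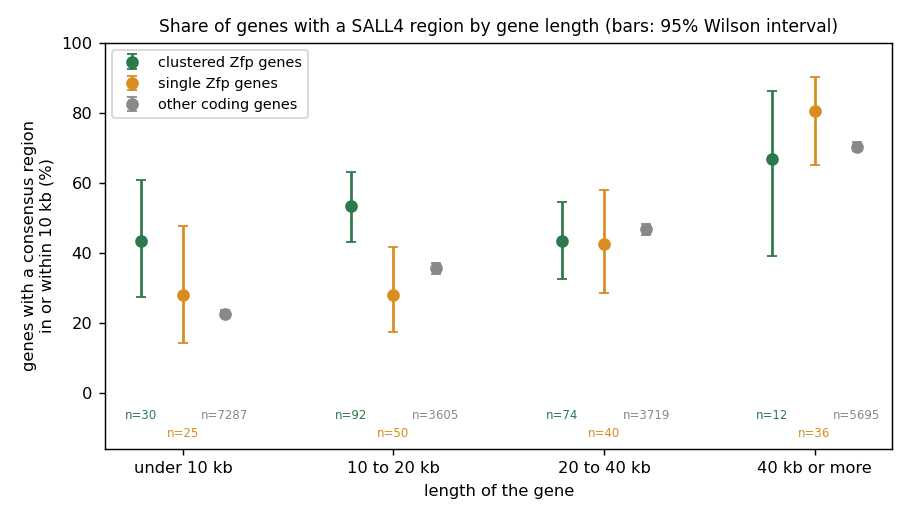
Share of genes with a consensus region in or within 10 kb (y axis, %) by gene length, for clustered Zfp, single Zfp and other coding genes, with the number of genes below and 95% Wilson intervals as bars. Clustered genes of 10 to 20 kb stand at 53.3% and single genes of that length at 28%.

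The clusters differed widely from each other. Of the 50, 12 had no consensus region, among them 3 of the clusters with 3 or more genes, and the densities ran from 0 to 1.02 per 10 kb with a median of 0.199. The largest, 15 genes from Zfp84 to Zfp146 at chr7:29768552-30169775, held 27 and 19 wild-type intervals and 18 consensus regions at 8 of its genes. Its first 5 genes, from Zfp84 to Zfp420, had no consensus region, and the regions lay at Zfp27 and beyond. The fullest were Zfp568 with 7, and Zfp383 and Zfp27 with 4 each, which were the same 4 regions. Its strongest region, at chr7:30031377-30031952 between Zfp568 and Zfp14, had fold enrichments of 19.5 and 19.9.

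The cluster of 14 genes from Zfp712 to Zfp748, at chr13:67038594-67553152, held 13 and 10 wild-type intervals and 9 consensus regions at 8 genes. Zfp459 was the fullest with 4, followed by Zfp457 with 2, and the strongest region lay in Zfp58 (14.5 and 14.3). Zfp58 itself had 1 region. The cluster of 13 genes from Zfp677 to Zfp943, at chr17:21383707-21994366, held 16 and 14 intervals and 11 consensus regions at 7 genes. Zfp677 had 4 and Zfp820 had 3. Besides the strong region upstream of Zfp677 given above, those in Zfp820 reached 23.4 and 22.4, while no region at another gene of the cluster passed 8.95 in either list. A run of genes between them, Zfp53, Zfp52, Zfp948 and Zfp983, had none. Between 6 and 7 genes of each of these 3 clusters had no region, as did 106 of all 208 clustered genes. Genes of a cluster can be near-identical in sequence. How reads that match several copies were placed is not given in the sources used here, so counts at such genes, and their absence, are uncertain.

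**Figure D4:**
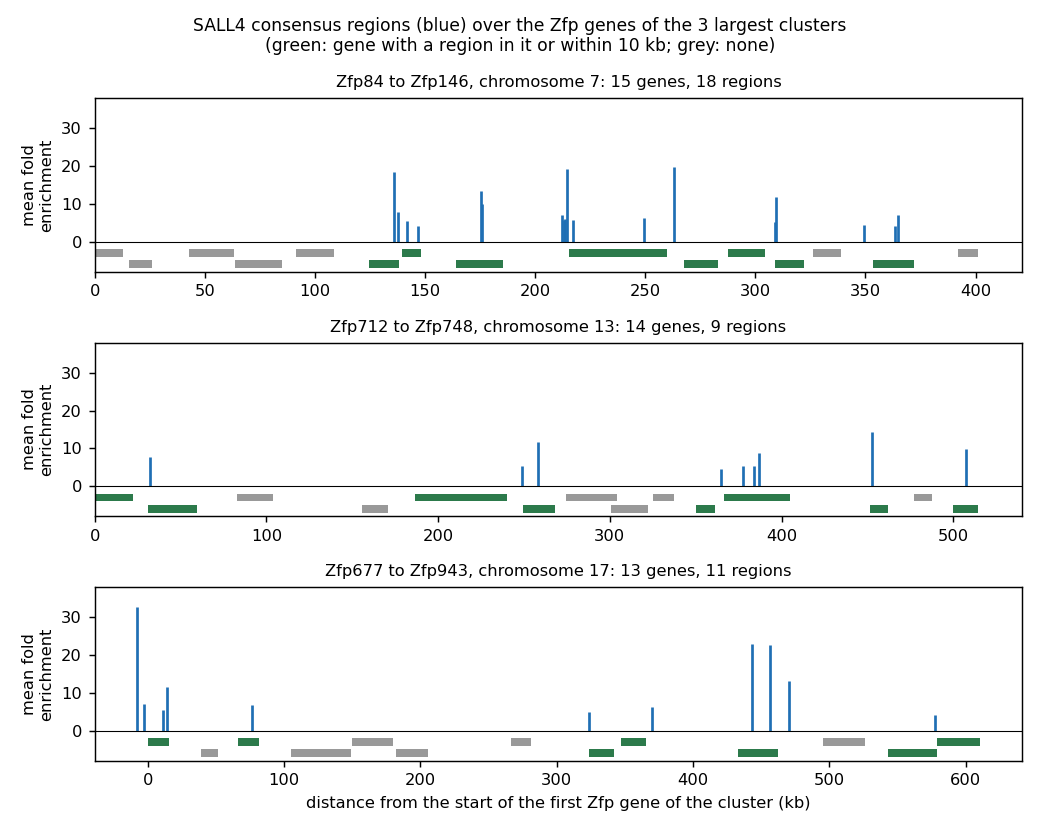
Mean fold enrichment of both wild-type replicates (blue lines, y axis) at each consensus region along the 3 largest Zfp clusters, against the distance from the first gene in kb. Bars below are genes, green with a region in or within 10 kb and grey without. Genes at the left end of the chromosome 7 cluster and from Zfp53 to Zfp983 in the chromosome 17 cluster are grey.

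Of the 467 regions, 322 (69.0%) lay inside a Zfp gene, 128 outside any coding gene and 17 in a flank but inside another coding gene. Position along the gene was read from the 300 genes with a known strand, 180 clustered and 120 single. Zfp704, Zfp462, Zfp532, Zfp609 and Zfp521, which are among the 10 fullest, had none and are not in these values. Around the start, within 1 kb, clustered genes had 13 regions or 0.361 per 10 kb and single genes 6 or 0.250, beside 0.322 at other coding genes. Around the end, where the finger array of KRAB proteins is commonly encoded, clustered genes had 9 regions or 0.250 per 10 kb and single genes 4 or 0.167, beside 0.154. Inside the body both classes stood above other coding genes, at 0.266 and 0.264 against 0.186. In the upstream flank single genes had 0.306 and clustered genes 0.228, beside 0.238 at other coding genes. The numbers at starts and ends are too small to rank the classes. A region near neighbouring genes was counted for each of them here.

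**Figure D5:**
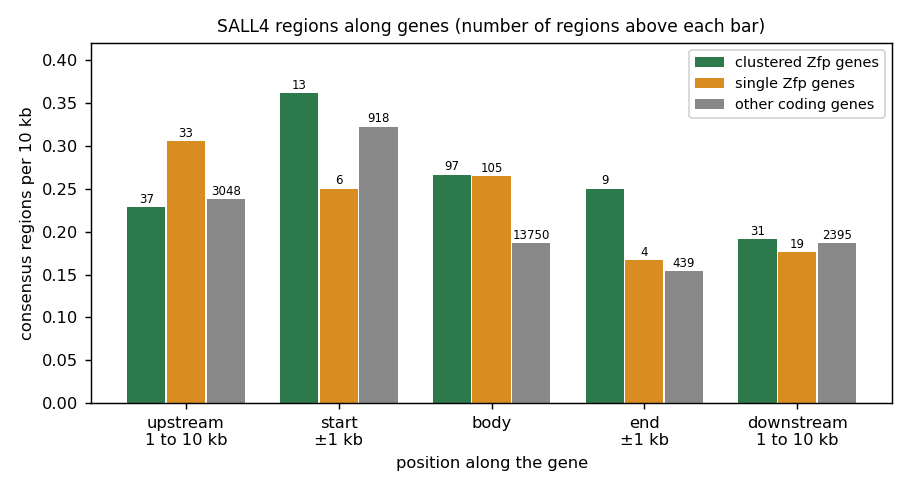
Consensus regions per 10 kb (y axis) in 5 zones along stranded genes, for clustered Zfp, single Zfp and other coding genes, with the number of regions above each bar. In the body both Zfp classes stand near 0.26 and other coding genes at 0.186, and the bars at starts and ends of Zfp genes rest on 4 to 13 regions.

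The partners of KRAB zinc-finger proteins were counted from a list of 16 genes of corepressor and heterochromatin factors. A consensus region was present at 15 of the 16 (Atrx lies on the X chromosome), beside 42.8% of all coding genes, and the median was 3 regions per gene, beside 0 for all coding genes and 0 for Zfp genes. Trim28, the corepressor that KRAB domains bind, had 2, and Setdb1, the methyltransferase it recruits, had 5. Atf7ip, which stabilises SETDB1, had 15. Among the genes of the HP1 proteins that bind methylated histone H3, Cbx5 had 13, Cbx1 had 9 and Cbx3 had 1. The remodeller genes Atrx and Smarcad1 had 11 and 10. Dnmt1, the maintenance DNA methyltransferase, was the gene with 0 in every list. The list was not matched for gene length, and no test was made of it.

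The outermost regions inside the limit of 10 kb lay 9953 bp from Zfp936 (fold enrichments 4.57 and 4.53) and 9928 bp from Zfp493 (15.2 and 16.998). The nearest beyond it lay 10121 bp from Zfp148 (5.41 and 6.67) and 10287 bp from Zfp57 (7.11 and 5.53). Density was 0.285 per 10 kb inside Zfp genes, 0.239 from the gene to 10 kb, 0.215 from 10 to 20 kb and 0.217 from 20 to 50 kb.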

How the data were processed

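The submitters' processing notes name Trim Galore 0.6.0, cutadapt 1.18, FastQC 0.11.8, BWA 0.7.17 and MACS2 2.1.1.20160309 and the build GRCm38 (mm10). Filters, peak-calling settings and the control used are not given in the sources used here. The 4 deposited lists were called per sample. Each deposited line gives a score (10 times −log10 q without decimals), the summit's offset, its −log10 p and −log10 q, and a fold enrichment, the ratio of summit pileup to local background. Depth is not given. Summit pileups were recovered as the whole number that returns both fold enrichment and Poisson p (pseudocount 1, tolerance 0.0001 in −log10 p), for 100% of member summits in both lists. Lines that overlap in a list became 1 interval carrying its strongest line.

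Gene spans came from the GRCm38.p6 RefSeq table and strand and sequences from its promoter table. Groups and replicate numbers came from the titles. The members and gene lists were chosen with earlier results of these data known. Named were the 10 fullest and 5 densest Zfp genes, 14 genes by name, the 3 largest clusters with their 3 fullest genes, and the 5 best-ranked regions. Densities divide regions by the merged gene spans with flanks. Zinc fingers per protein were not counted, as no protein table was used here. Scripts were tested on simulated data. Alternatives covered strictness, distance, overlap, symbols, the definition of clustered, pairing by number and leaving out each library. For the IgG libraries the labels give SALL4 as antibody, and the peak names of wild-type replicate 2 mix both genotypes' letters, so titles were followed. Python 3.11.15, numpy 2.4.6, pandas 2.3.3, scipy 1.17.1, statsmodels 0.14.6 and matplotlib 3.10.9 were used.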

Additional observations from a re-analysis of the deposited data

Results flagged for a closer look

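Zfp genes on the X chromosome were outside the comparisons. Of 7 such genes, Zfp182, Zfp449 and Zfp185 had a consensus region in or within 10 kb, 3 regions in all. Among coding genes of chromosomes 1 to 19 the share with a region was 42.8%, and the share among coding genes of the X was not computed, so nothing particular to these genes is read from the count. The wild-type lists held 3 and 4 intervals at the 7 genes, and the knockout lists 0 and 0.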

How the results depend on the processing

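The difference between wild-type and knockout intervals at Zfp genes ran from 6.86 to 10.2 on the log2 scale under the 10 alternatives run. Its direction could not change, since both knockout lists hold 0 intervals on chromosomes 1 to 19. With same-numbered libraries paired (replicate block) it was 9.33, and flipping signs exactly gave p = 0.5, which 2 pairs cannot go below, and whether the numbers pair the samples could not be told from 1 value each. Keeping regions with a knockout interval changed nothing. The share of Zfp genes with a region, 47.1%, was 23.4% when −log10 q had to reach 10, 18.7% at a fold enrichment of at least 10, 30.6% inside genes only, 79.7% within 50 kb, 42.9% with a reciprocal overlap of 50%, 44.0% with summits within 100 bp and 54.6% to 57.9% with 1 wild-type list left out. The 467 regions became 128, 90 and 851 under the strict q, the strict fold enrichment and 50 kb. Their strength, a median fold enrichment of 6.46 averaged over the lists, became 13.3 and 15.1 under the strict settings, 6.66 within 50 kb, 6.504 with suffixed symbols, 6.83 and 6.69 with the stricter overlaps, and 5.51 to 5.53 with a list left out.

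The density ratio of clustered to single genes, 0.894, reversed to 1.26 under each strict setting, to 1.51 for genes of 10 to 40 kb, and, under settings added after seeing the data, to 1.25 without the 5 fullest single genes and 1.15 without the 5 fullest of each class. It was 0.853 inside genes only, 0.953 within 50 kb, 0.863 with summits within 100 bp, 0.918 and 0.859 with cluster gaps of 50 and 250 kb, 0.970 for clusters of 3 or more genes, and 0.917 to 0.932 with a list left out. The strict settings test fewer regions by construction, and the cause of the reversal was not tested. The difference in the share of genes with a region, 4.67 points higher for clustered genes, was positive under each setting run but ranged from 0.306 inside genes only to 19.8 within 50 kb, and was 1.70 without wild-type replicate 2 and 3.93 without replicate 1. Of 24 genes named, the number of regions moved by over 1.5 times at 19 and 20 under the strict q and fold enrichment, at 12 within 50 kb, at 5 inside genes only, at 11 without wild-type replicate 2 (Zfp609 from 12 to 21, Zfp993 from 9 to 14, Zfp106 and Zfp143 from 3 to 5 among them) and at 3 without replicate 1 (Zfp207 from 1 to 5 and Zfp36 from 1 to 2 among them). Summits of few fragments limit most single regions.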

Other observations

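Other zinc-finger families were counted in the same way, beside 42.8% of all coding genes with a region and 0.192 regions per 10 kb. Of 34 Zbtb genes, whose proteins join a BTB domain to zinc fingers, 24 had a consensus region (70.6%, 95% Wilson interval 53.8 to 83.2), at 0.331 per 10 kb. Of 16 Klf genes, among them regulators of naive pluripotency, 9 had one (56.2%, 33.2 to 76.9), at 0.457 per 10 kb. The Klf regions lay more in the flanks, at 0.906 per 10 kb against 0.260 inside genes. Of 16 Zscan genes, 5 had one (31.2%, 14.2 to 55.6), at 0.170 per 10 kb. The intervals of Klf and Zscan overlap that of the Zfp genes (41.97 to 52.2), that of Zbtb lies above it, and those of the 3 families overlap each other. The families were not tested against each other.

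Density also varied by chromosome, without a test. Chromosome 7 held 90 of the 359 genes, with 98 regions and 0.298 per 10 kb, beside 0.156 for all its coding genes. Chromosome 17, with 41 genes, had 0.208 beside 0.197, and chromosome 6, with 17 genes, had 0.0907 beside 0.194. Over chromosomes 1 to 19 the density at Zfp genes was above that at coding genes on 12 of 19, with ratios from 0 to 3.47. Of the 12 chromosomes with 10 or more Zfp genes, 9 had a higher density at Zfp genes than at coding genes, with ratios from 0.467 to 2.37.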
